A study of Homo sapiens with 8 samples.

Results

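The 9 genes described here encode parts of the MHC class I antigen presentation pathway, and all 9 were found by their symbols among the 17467 genes that the study's 3 expression tables share. They are the heavy chains HLA-B, HLA-C, HLA-E and HLA-F, the light chain B2M, the peptide transporter subunits TAP1 and TAP2, the loading factor TAPBP (tapasin) and the transactivator NLRC5. Messenger RNA was sequenced from SUDHL6, an established cell line from a diffuse large B-cell lymphoma. The cells were exposed for 18 h to MS8815, EPZ-6438 or MS8815N, each at 2.5 µM, or to the vehicle DMSO, with 2 libraries per group and 8 in all. MS8815 is a PROTAC, a molecule that brings its target protein EZH2 to an E3 ubiquitin ligase for degradation. EPZ-6438 (tazemetostat) inhibits the catalytic SET domain of EZH2, and MS8815N is a structural analog of MS8815 that the labels describe as lacking PROTAC function. EZH2 is the methyltransferase of Polycomb repressive complex 2. All groups share the same line and medium, and 1 cell line in 1 vehicle is the whole model. The labels do not say whether duplicates came from separate cultures, so p-values measure the spread between these samples, which may be technical.

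Class I molecules display peptides from inside the cell to cytotoxic T cells. The proteasome cuts proteins into peptides, the TAP1/TAP2 transporter moves them into the endoplasmic reticulum, and tapasin holds empty class I molecules at the transporter until a peptide is bound. Each class I molecule is a heavy chain paired with beta-2 microglobulin, the product of B2M. HLA-B and HLA-C are classical, highly variable heavy chains. HLA-E presents leader peptides of other class I chains to receptors of natural killer cells, and HLA-F is a less variable, mostly intracellular heavy chain. NLRC5 enters the nucleus and, with the RFX, CREB/ATF and NF-Y factors bound at an X-Y module, activates class I promoters. Interferon regulatory factors act through a nearby interferon-stimulated response element. Low class I expression is frequent in B-cell lymphomas, and Polycomb repression of class I genes has been described in several tumour types.

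In the GENCODE 29 annotation of GRCh38, 7 of the genes lie in the MHC region of chromosome 6, where TAP2 (32821833 to 32838780) and TAP1 (32845209 to 32853978) are neighbours on the minus strand. HLA-C spans 31268749 to 31272130 and HLA-B 31269491 to 31357188, both on the minus strand, and the HLA-B span includes long annotated transcripts that overlap HLA-C. HLA-F spans 29722775 to 29738528 and HLA-E 30489467 to 30494205, both on the plus strand, and TAPBP spans 33299694 to 33314387 on the minus strand. B2M lies on chromosome 15 (44711487 to 44718877) and NLRC5 on chromosome 16 (56989485 to 57083531), both on the plus strand. Reads of the heavy chains can be split between near-identical copies. Of the 31-base words of the longest coding transcript, 20.1% in HLA-C, 15.6% in HLA-B, 8.09% in HLA-E and 6.42% in HLA-F also occur in another HLA gene, against 0% in B2M and NLRC5. The values of the heavy chains are therefore uncertain in their division between paralogues. Overlapping annotations add to this for TAP2, where 32.3% of exonic bases are shared with AL669918.1 on the same strand, and on the opposite strand for HLA-B, where 17.8% are shared with the pseudogene AL671883.2, and HLA-F, where 16.1% are shared with the pseudogene AL645939.1 and 12.3% with HLA-F-AS1.

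Promoter sequences show what these genes have in common outside their expression values. RefSeq promoter entries on GRCh38.p14 matched 7 of the 9 genes (HLA-B, HLA-C, HLA-F, B2M, TAP1, TAP2 and TAPBP). 4 of them are printed because they cover a heavy chain, the light chain, the transporter and tapasin, the gene called lower with MS8815. Each run reads 5′ to 3′ on the gene's own strand over the 200 bases that end just before the RefSeq start. Capitals mark an interferon-response-like element, GAAANNGAAA or GAANNGAAA on either strand, and a TGACG (X2 core) followed 19 to 22 bases later by ATTGG (the Y box CCAAT on the other strand).
HLA-B promoter, chr6:31357180-31357379, minus strand: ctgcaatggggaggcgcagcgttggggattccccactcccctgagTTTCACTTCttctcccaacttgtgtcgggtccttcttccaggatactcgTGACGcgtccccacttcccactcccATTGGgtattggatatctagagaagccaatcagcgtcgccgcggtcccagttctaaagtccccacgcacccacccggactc
B2M promoter, chr15:44711317-44711516, plus strand: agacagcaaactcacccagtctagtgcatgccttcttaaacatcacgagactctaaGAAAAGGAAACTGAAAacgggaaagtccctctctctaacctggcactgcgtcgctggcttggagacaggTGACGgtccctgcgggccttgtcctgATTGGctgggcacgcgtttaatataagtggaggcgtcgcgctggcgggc
TAP1 promoter, chr6:32853705-32853904, minus strand: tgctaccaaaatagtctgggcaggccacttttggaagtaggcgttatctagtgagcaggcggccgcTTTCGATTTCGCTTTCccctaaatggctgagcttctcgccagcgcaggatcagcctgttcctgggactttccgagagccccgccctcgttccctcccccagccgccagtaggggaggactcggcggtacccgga
TAPBP promoter, chr6:33314079-33314278, minus strand: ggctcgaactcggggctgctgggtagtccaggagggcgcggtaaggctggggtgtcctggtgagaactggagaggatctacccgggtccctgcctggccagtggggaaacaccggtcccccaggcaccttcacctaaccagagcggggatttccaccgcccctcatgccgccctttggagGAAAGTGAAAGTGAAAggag

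At least 1 of the 2 interferon-response-like forms stood within 250 bases before a start of all 7 genes, against 9.08% of the 35116 RefSeq promoters. The pair of TGACG and ATTGG at that distance was found in HLA-B, HLA-C and B2M, 3 of 7, against 0.208% of all promoters. TGACG alone occurs in 21.2% and CCAAT alone in 32% of promoters, on either strand. The letters and the distance were chosen after these windows had been read, and a match of letters is a description, not a site of binding. TAPBP carries the interferon-response-like letters although its RNA did not rise as deposited.

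The deposited values are variance-stabilised. A doubling at the median gene spans only 0.038 to 0.092 of their units, so at such levels the scale is not close to log2. They were converted back to normalised read counts, which correct for sequencing depth. Levels of the 8 libraries are given on 1 joined scale, set across 3 tables that were normalised separately and linked through their common DMSO libraries. Log2 differences (compound minus DMSO) come from log2(normalised count + 1) within a compound's own table, which understates changes of low genes. A gene was called when limma's Benjamini-Hochberg adjusted p over all genes of that table was under 0.05, two-sided. Against DMSO, limma's p-values come from the deposited values and not from the log2 differences printed beside them. Estimated depth was 13.0 M and 14.6 M reads in the MS8815 libraries, 30.5 M and 26.0 M with EPZ-6438, 34.1 M and 30.2 M with MS8815N, and 30.9 M to 31.6 M with DMSO. The MS8815 libraries had the fewest reads and stand apart in composition: the summed B-cell markers were at 0.50 times and the summed epithelial and fibroblast markers at 16.6 times the DMSO mean. Both MS8815 libraries share this, so no result with MS8815 can be given without it.

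With MS8815, 8 of the 9 genes rose and 1, TAPBP, was called lower. The median log2 difference of the 9 genes was 2.99, against about 0 (-8.1e-05) for all 18744 genes of the table. A large part of the transcriptome differed between the MS8815 and DMSO libraries. Of all genes, 24.5% were called higher and 22.4% lower, and 46.9% in either direction. Whether the MS8815 libraries hold RNA of other cells was not tested. In bulk RNA, a change in the number of cells of a type and a change in RNA per cell cannot be told apart.

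Of the classical heavy chains, HLA-B reached 4596 and 4929 normalised counts in the MS8815 libraries. It stood at 607 and 550 with EPZ-6438, at 530 and 538 with MS8815N, and at 375 and 332 with DMSO. Both MS8815 libraries lay far above the other 6, and the EPZ-6438 and MS8815N libraries lay above both DMSO libraries. The log2 difference from DMSO was 3.75 ± 0.09 (SE; 13.4-fold) with MS8815, with limma's adjusted p = 8.06e-06.

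HLA-C, the other classical heavy chain, measured 6320 and 6552 normalised counts with MS8815, 3871 and 3853 with EPZ-6438, 3656 and 3671 with MS8815N, and 3260 and 3040 with DMSO. No group overlapped another, and the MS8815 level was 2.04-fold that of DMSO (log2 1.03 ± 0.06 SE, limma's adjusted p = 6.57e-05). The log2 difference was thus smaller than that of HLA-B, a contrast between genes that was not itself tested.

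HLA-E, the ligand of natural killer receptors, measured 2908 and 2995 normalised counts with MS8815, 374 and 431 with EPZ-6438, 413 and 408 with MS8815N, and 325 and 324 with DMSO. The MS8815 libraries stood apart, and the EPZ-6438 and MS8815N ranges overlapped each other just above DMSO. Against DMSO the log2 difference with MS8815 was 3.18 ± 0.09 (SE), with limma's adjusted p = 1.04e-05.

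HLA-F was close to the limit of detection outside the MS8815 libraries. It measured 68.3 and 64.7 normalised counts with MS8815, 9.51 and 10.3 with EPZ-6438, 12.4 and 6.72 with MS8815N, and 2.62 and 2.35 with DMSO. The log2 difference with MS8815 was 4.22 ± 0.46 (SE; limma's adjusted p = 0.000798), the largest of the 9 genes at this pseudocount and scaling. The DMSO libraries held only about 7 estimated HLA-F reads together in the MS8815 table, against 76 in the MS8815 libraries. The same DMSO libraries gave an estimate of 5 in each of the EPZ-6438 and MS8815N tables, so these are not exact read counts. Taken as counts, 76 and 7 give a ratio of 25.3 with a binomial 95% interval of 11.7 to 65.1. That interval covers counting error only, not the error of the estimates. With a pseudocount of 10 in place of 1 the log2 difference was 2.48, and under quantile normalisation it was 3.01. Both are below the values of HLA-B under the same settings (3.70 and 3.66), so the rank of HLA-F among the genes depends on them.

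B2M, the light chain that every class I molecule needs, measured 13904 and 14241 normalised counts with MS8815, 6192 and 6157 with EPZ-6438, 6507 and 6864 with MS8815N, and 6399 and 6684 with DMSO. The MS8815 libraries held 2.15 times the DMSO level (log2 1.11 ± 0.04 SE, limma's adjusted p = 2.39e-05). The other 3 groups lay close together, with EPZ-6438 lowest. The size of the B2M difference was near that of HLA-C and far below that of HLA-B and HLA-E.

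**Figure D1:**
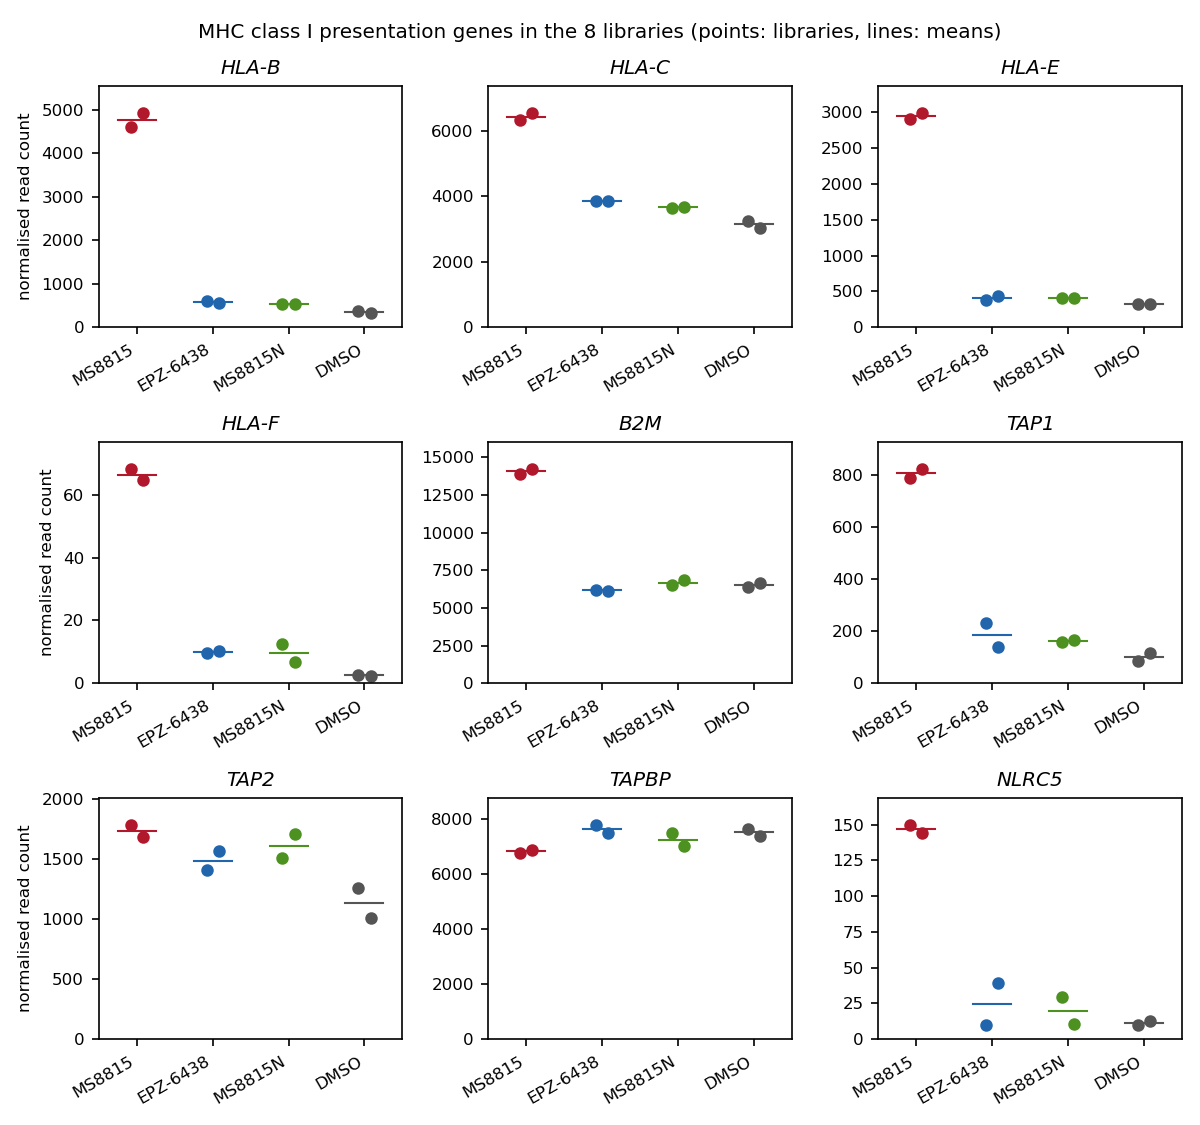
Normalised read count (joined scale, linear axes from 0) of each of the 9 class I genes in the 8 libraries, with a point per library and a line at the mean of the 2 libraries of MS8815, EPZ-6438, MS8815N and DMSO. The MS8815 libraries lie above all others for every gene except TAP2, where 1 MS8815N library reaches into their range, and TAPBP, where they lie lowest as deposited but not under quantile normalisation or B-cell scaling. The share of all genes with such a pattern was not computed. HLA-B measured 4596 and 4929 with MS8815 against 375 and 332 with DMSO.

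The subunits of the peptide transporter had differences of unequal size. TAP1 measured 787 and 823 normalised counts with MS8815, 231 and 138 with EPZ-6438, 156 and 168 with MS8815N, and 85.1 and 118 with DMSO. Both MS8815 libraries lay above all others, and the log2 difference from DMSO was 2.99 ± 0.21 (SE), with limma's adjusted p = 9.36e-05. The EPZ-6438 libraries differed from each other by more than the DMSO libraries did.

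TAP2 measured 1783 and 1684 normalised counts with MS8815, 1408 and 1562 with EPZ-6438, 1509 and 1703 with MS8815N, and 1261 and 1004 with DMSO. All 3 compounds lay above DMSO, and the MS8815 and MS8815N ranges overlapped. The log2 difference with MS8815 was 0.62 ± 0.12 (SE, limma's adjusted p = 0.00673). That call was lost without DMSO replicate 2 (log2 0.46, limma's adjusted p = 0.0771), without MS8815 replicate 1 (0.58, adjusted p = 0.0756) and without MS8815 replicate 2 (0.66, adjusted p = 0.0574). Over all alternatives the adjusted p of TAP2 ran from 2.00e-04 to 0.0771.

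TAPBP, the peptide-loading chaperone, measured 6744 and 6884 normalised counts with MS8815, 7781 and 7500 with EPZ-6438, 7482 and 7011 with MS8815N, and 7641 and 7375 with DMSO. The MS8815 libraries were the lowest, by a log2 difference of -0.14 ± 0.04 (SE, limma's adjusted p = 0.0363), a value that became 0.17 under quantile normalisation and 0.90 under scaling to B-cell genes. The call was also lost without any 1 of the 4 libraries (limma's adjusted p 0.0593 to 0.211, and 8.15e-05 to 0.211 over all alternatives). The direction of TAPBP thus depended on the scaling.

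NLRC5, the class I transactivator, measured 150 and 145 normalised counts with MS8815, 9.80 and 39.2 with EPZ-6438, 29.5 and 10.6 with MS8815N, and 9.82 and 12.8 with DMSO. The log2 difference with MS8815 was 3.56 ± 0.35 (SE, limma's adjusted p = 0.000446), and 2.33 under quantile normalisation. The MS8815 duplicates lay close together, whereas the duplicates of EPZ-6438 and of MS8815N each straddled or reached the DMSO range. An estimated 67 and 75 reads stood behind NLRC5 in the MS8815 libraries, and 11 and 15 in the DMSO libraries of the same table. The same DMSO libraries gave 9.5 and 12.7 in the MS8815N table, so these estimates are rough.

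**Figure D2:**
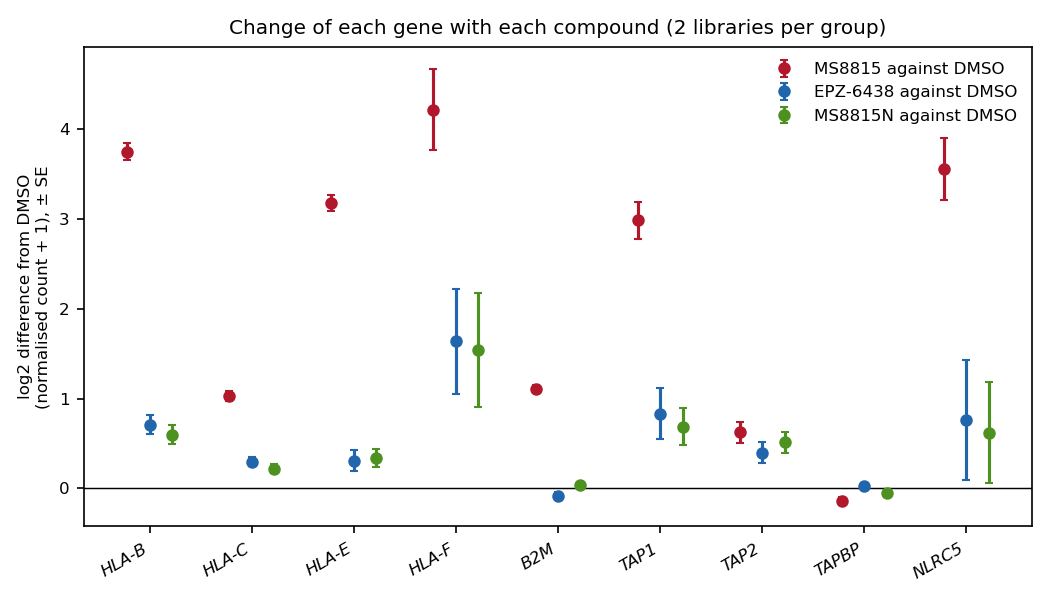
Log2 difference from DMSO (log2 of normalised count + 1, within each compound's own table) of the 9 class I genes with MS8815, EPZ-6438 and MS8815N, where points are limma estimates from 2 libraries per group and bars are ± 1 SE. MS8815 gave 3.75 for HLA-B, 3.18 for HLA-E and 4.22 for HLA-F but 1.03 for HLA-C, 1.11 for B2M and -0.14 for TAPBP (0.17 and 0.90 under other scalings), while EPZ-6438 and MS8815N passed the test for none of the genes.

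With EPZ-6438, limma called 0 of the 9 genes at the adjusted threshold, where 0.0328% of the 18320 genes of its table were called. HLA-C was called in limma without trend (adjusted p = 0.0471), and HLA-B and HLA-C after removal of the lower 50% of genes (limma's adjusted p = 0.0393 and 0.0389). At an unadjusted p under 0.05 limma counted 6 of the 9 genes, against 16.8% of all genes. The median log2 difference of the 9 genes was 0.40, against 0.01 for all genes. HLA-B was 1.64-fold the DMSO level (log2 0.71 ± 0.11 SE, limma's adjusted p = 0.0808) and HLA-C 1.23-fold (log2 0.29 ± 0.05 SE, adjusted p = 0.0808). For HLA-B, HLA-C, HLA-E, HLA-F, TAP1 and TAP2 both EPZ-6438 libraries lay above both DMSO libraries, a pattern shown by 24.3% of all genes. For B2M both lay below DMSO, a pattern of 23.8% of all genes, at a log2 difference of -0.08 (adjusted p = 0.305, limma). HLA-F differed by 1.64 ± 0.59 (SE) on the log2 scale with limma's adjusted p = 0.236, and NLRC5 by 0.76 ± 0.67 (adjusted p = 0.585), a value that became -0.18 without EPZ-6438 replicate 2.

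With MS8815N, limma also called 0 of the 9 genes, where 0.533% of the 18398 genes of its table were called in either direction. HLA-B was called after removal of the lower 50% of genes (limma's adjusted p = 0.039). At an unadjusted p under 0.05 limma counted 5 of the 9, against 15.7% of all genes. The median log2 difference of the 9 genes was 0.51, against 0.0043 for all genes. HLA-B was 1.51-fold the DMSO level (log2 0.60 ± 0.10 SE, limma's adjusted p = 0.0695), TAP2 differed by 0.51 ± 0.11 (adjusted p = 0.103) and HLA-C by 0.22 ± 0.05 (adjusted p = 0.0964). HLA-B, HLA-C, HLA-E, HLA-F, TAP1 and TAP2 had both MS8815N libraries above both DMSO libraries, a pattern of 23.5% of all genes. The comparisons of EPZ-6438 and MS8815N share their DMSO libraries. NLRC5 differed by 0.62 ± 0.56 (limma's adjusted p = 0.636) and by -0.08 without MS8815N replicate 1. HLA-F differed by 1.54 ± 0.64 (adjusted p = 0.319, limma), with 20 estimated reads against 5 in DMSO. Taken as counts, these give a ratio of 3.82 with a binomial 95% interval of 1.39 to 13.0, which leaves out the error of the estimates.

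The 3 compounds were given at the same dose and time, so their levels were compared with each other in 3 pairs, with p-values adjusted over all 17467 shared genes and all 3 pairs. Against its analog MS8815N, MS8815 was higher for 7 of the 9 genes and lower for none, where 47.3% of all genes were called, 22.7% higher and 24.6% lower. The log2 difference was 3.15 for HLA-B (95% interval 2.94 to 3.37, limma's adjusted p = 1.77e-07), 2.84 for HLA-E (2.62 to 3.06) and 0.81 for HLA-C (0.71 to 0.92). It was 1.07 for B2M (0.99 to 1.16), 2.31 for TAP1 (1.72 to 2.90), 2.73 for HLA-F (1.60 to 3.86) and 2.98 for NLRC5 (1.42 to 4.54, limma's adjusted p = 0.00947). The NLRC5 call was lost under quantile normalisation (log2 1.89, limma's adjusted p = 0.0756) and without MS8815N replicate 2 (2.28, adjusted p = 0.0693), in a range of 0.0011 to 0.0756 over all alternatives. No difference was called for TAP2 (0.11, interval -0.16 to 0.38) or TAPBP (-0.09, interval -0.19 to 0.01). Under scaling to B-cell genes these became 1.12 and 0.92.

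Against the enzymatic inhibitor EPZ-6438, MS8815 was higher for 7 genes (the 4 heavy chains, B2M, TAP1 and NLRC5), with 47.5% of all genes called, 22.8% higher and 24.7% lower. HLA-B differed by 3.04 on the log2 scale (95% interval 2.82 to 3.26, limma's adjusted p = 2.13e-07), HLA-E by 2.87 (2.65 to 3.10), HLA-C by 0.74 (0.63 to 0.84) and B2M by 1.19 (1.10 to 1.28). TAP1 differed by 2.16 (1.57 to 2.75), HLA-F by 2.63 (1.50 to 3.77) and NLRC5 by 2.83 (1.27 to 4.39). The NLRC5 call was lost under quantile normalisation (log2 1.82, limma's adjusted p = 0.0841) and without EPZ-6438 replicate 1 (1.88, adjusted p = 0.067), in a range of 0.00127 to 0.0841 over all alternatives. TAPBP was called lower (-0.16, interval -0.26 to -0.07, limma's adjusted p = 0.0169), a direction that turned under quantile normalisation (0.09) and scaling to B-cell genes (0.89). That TAPBP call was also lost without MS8815 replicate 1 (limma's adjusted p = 0.0502), without EPZ-6438 replicate 1 (0.113) and in limma without trend (0.126). TAP2 differed by 0.22 (interval -0.04 to 0.49) and was not called.

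MS8815N and EPZ-6438 had no called difference on any of the 9 genes, where 2.54% of all genes were called between them. The intervals of the log2 difference (MS8815N minus EPZ-6438) were narrow for B2M (0.03 to 0.20, limma's adjusted p = 0.0547), TAPBP (-0.17 to 0.02), HLA-C (-0.18 to 0.03), HLA-E (-0.19 to 0.25) and HLA-B (-0.33 to 0.10). They were wide for TAP1 (-0.73 to 0.45), HLA-F (-1.23 to 1.03) and NLRC5 (-1.71 to 1.41), and those of HLA-F and NLRC5 reach past a 2-fold difference in both directions. B2M was the only one of the 9 with an unadjusted p under 0.05. It was called without MS8815N replicate 1 (log2 0.15, limma's adjusted p = 0.045), under scaling to B-cell genes (0.17, adjusted p = 0.00493) and after removal of the lower 50% of genes (adjusted p = 0.0432). The share of all genes in each order of group means was not computed. By group mean, MS8815 was highest for 8 of the 9 genes, all but TAPBP. EPZ-6438 and MS8815N followed above DMSO for 7 of them, while for B2M the order was MS8815, MS8815N, DMSO and EPZ-6438, and for TAPBP it was EPZ-6438, DMSO, MS8815N and MS8815, as deposited.

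**Figure D3:**
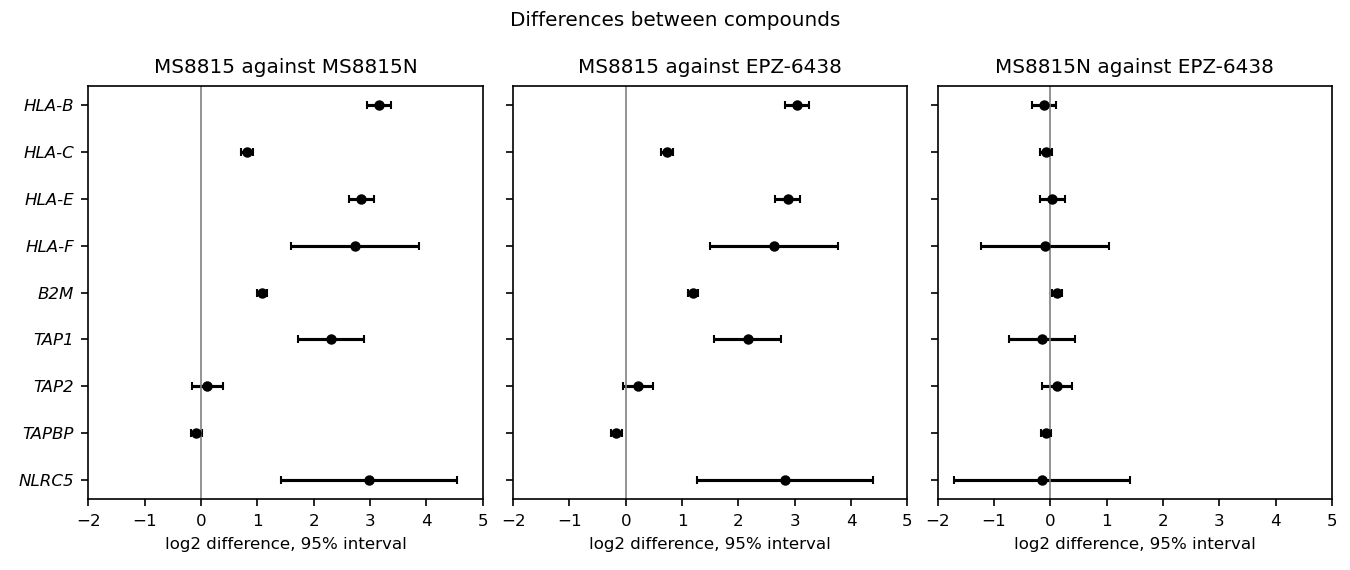
Log2 difference between compounds for the 9 class I genes in the 3 pairs (MS8815 minus MS8815N, MS8815 minus EPZ-6438, MS8815N minus EPZ-6438), where points are limma estimates over the 8 joined libraries and bars are 95% confidence intervals. The intervals of HLA-B run from 2.94 to 3.37 and from 2.82 to 3.26 in the first 2 panels and from -0.33 to 0.10 in the last; the TAPBP values of the first 2 panels turn positive under quantile normalisation and B-cell scaling.

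Of 35 other genes of peptide generation, loading and class I transcription, 10 were called higher and 10 lower with MS8815. Each is 28.6% of the list, next to 24.5% of all genes called higher and 22.4% lower, so these counts are near the background. The median log2 difference of the 35 genes was -0.01, next to 2.99 for the 9 genes. Among the called genes with the smallest p-values were the inducible immunoproteasome subunits PSMB9 (2.98 ± 0.24 SE, limma's adjusted p = 0.00028) and PSMB8 (1.32 ± 0.14), whose genes neighbour TAP1 and TAP2. The constitutive proteasome subunits PSMB7 (0.58) and PSMB6 (0.54) were also higher. PSMB10, the remaining inducible subunit, did not rise and was not called (-0.25, limma's adjusted p = 0.118). The loading-complex chaperones PDIA3 (-0.77) and CALR (-0.48) were lower, as were SUSD6 (-0.75) and WWP2 (-0.60), which take part in the turnover of class I molecules. IRF1, an interferon regulatory factor, and the X-box subunits RFXAP, RFXANK and RFX5 were singled out after their values had been seen. IRF1 was higher (log2 2.51 ± 0.31 SE), while RFXAP (-0.55), RFXANK (-0.52) and RFX5 (-0.43) were lower. Quantile normalisation gave 10 higher and 10 lower. Scaling to B-cell genes gave 32 higher and 0 lower, but it called 71.7% of all genes higher and moved their median by 1.02. Every fall named here turned positive under that scaling (CALR 0.56, PDIA3 0.27, RFX5 0.61). RFX5 was not called under quantile normalisation (-0.26, limma's adjusted p = 0.0813).

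EPZ-6438 and MS8815N each called 0 of the 35 pathway genes, with median log2 differences of -0.03 and 0.02. PSMB9 differed by 1.05 with EPZ-6438 (limma's adjusted p = 0.129) and by 0.90 with MS8815N (adjusted p = 0.133). PSMB8 differed by 0.59 with EPZ-6438 (limma's adjusted p = 0.105) and by 0.44 with MS8815N. Between MS8815N and EPZ-6438, 5 of the 35 genes (14.3%) were called, next to 2.54% of all genes, among them ERAP1, the aminopeptidase that trims peptides in the endoplasmic reticulum, at -0.88 (95% interval -1.30 to -0.46).

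Markers of other cell types moved with MS8815 beside these genes. The summed level of 11 epithelial and fibroblast markers was 36624 to 37168 normalised counts with MS8815, 2849 to 3004 with EPZ-6438, 2984 to 3285 with MS8815N, and 2119 to 2323 with DMSO. Against DMSO, 10 of the 13 markers measured in the MS8815 table were called higher and 0 lower, with a median log2 difference of 3.96. The keratins KRT8 (4.05), KRT18 (4.07), KRT19 (3.96) and KRT7 (4.13), the integrin ITGA3 (4.11), the caveolin CAV1 (4.20) and fibronectin FN1 (3.98) had log2 differences within the range of HLA-B (3.75) and HLA-F (4.22). The fibroblast marker DCN was at 0 in 1 MS8815 library and CDH1 stood at 1.70 and 4.88 normalised counts with MS8815 against 6.23 and 1.09 with DMSO, on that table's own scale. With EPZ-6438 and MS8815N the same summed level stood at 132% and 141% of the DMSO mean, with 0 of 11 markers called in each and median log2 differences of 0.43 and 0.53, near the medians of the 9 class I genes (0.40 and 0.51). Their part in the class I results was not tested.

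The labelled B-cell identity was checked in the same way. The summed level of 18 measured B-cell markers was 94134 to 94974 normalised counts with MS8815, 189504 to 190638 with EPZ-6438, 187989 to 188130 with MS8815N and 188584 to 189745 with DMSO. In the MS8815 libraries, 16 of the 18 were called lower, with a median log2 difference of -1.01, among them MS4A1 (-1.29) and CD79A (-0.91), which encode CD20 and a chain of the B-cell receptor. Called higher was 1 gene of the list, CIITA, the class II transactivator related to NLRC5, at 2.27 ± 0.59 (SE, limma's adjusted p = 0.0104). CIITA measured 125 and 153 normalised counts with MS8815 against 53.3 and 14.4 with DMSO on that table's own scale, and its call was lost under quantile normalisation (1.10, limma's adjusted p = 0.156). Of 5 myeloid markers 3 were called higher with MS8815, with a summed level of 1028 to 1161 against 221 to 289 with DMSO, and 0 of 4 T and NK cell markers were called. Under quantile normalisation 2 of the myeloid markers were called higher and 1 lower, and 2 of the T and NK cell markers lower. Under scaling to B-cell genes all 5 myeloid markers and 1 T and NK cell marker were called higher, where 71.7% of all genes were. EZH2 mRNA itself measured 2479 and 2345 normalised counts with MS8815 against 2820 and 2993 with DMSO (log2 -0.27, limma's adjusted p = 0.0123), a difference that was -0.04 under quantile normalisation and 0.77 under scaling to B-cell genes. A degrader acts on the protein, so this mRNA does not check the labels.

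**Figure D4:**
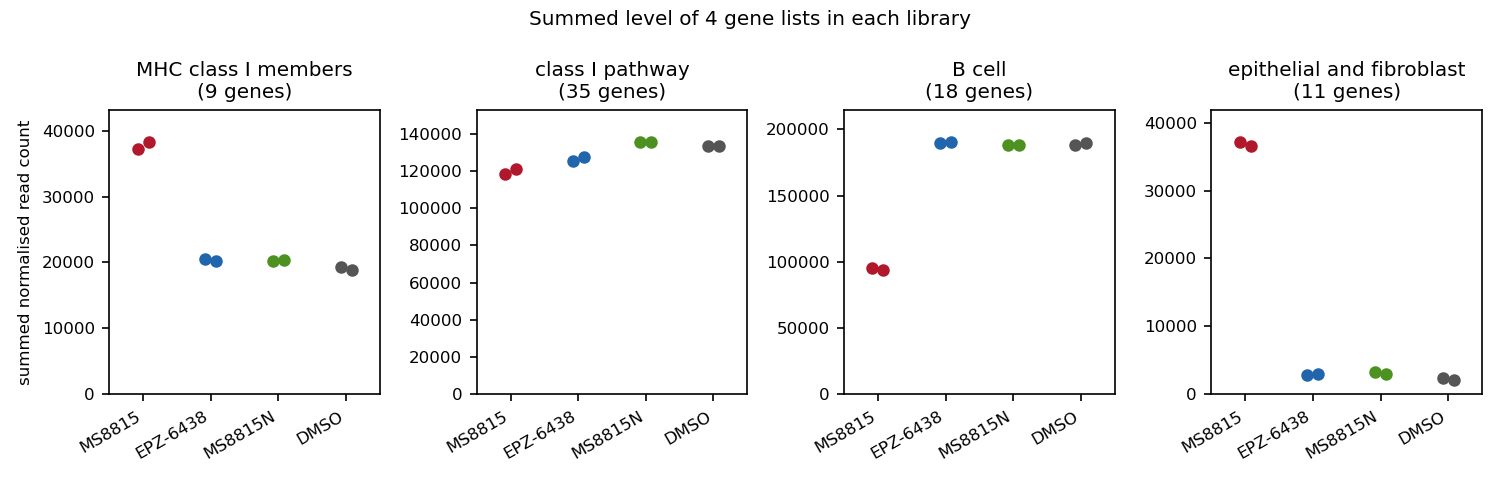
Summed normalised read count (joined scale, linear axes from 0) of the 9 class I genes, 35 other pathway genes, 18 B-cell markers and 11 epithelial and fibroblast markers in each of the 8 libraries, with a point per library. With MS8815 the class I sum was 37260 to 38317 against 18893 to 19357 with DMSO, the epithelial and fibroblast sum 36624 to 37168 against 2119 to 2323, and the B-cell sum 94134 to 94974 against 188584 to 189745.

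Because 16 of the 18 B-cell markers were called lower with MS8815, the class I differences were also computed on other scalings. The markers moved unevenly (log2 -2.22 to 2.27), and after B-cell scaling 7 of them were called higher and 3 lower. Scaling each library to the B-cell list treats the MS8815 libraries as holding 48.7% and 48.4% of the DMSO level and moves the median of all genes by 1.02 on the log2 scale. All 9 class I genes were then called higher, with a median of 4.03, but so were 71.7% of all genes. Quantile normalisation moves the median of all genes by -0.20, and all 9 were called higher with a median of 2.33, next to 19.8% of all genes. Under it HLA-F (3.01), NLRC5 (2.33) and TAP1 (2.36) moved most from their deposited values of 4.22, 3.56 and 2.99. The split of all calls was 52.3% higher as deposited, 40.7% higher after quantile normalisation and 98.9% higher after scaling to B-cell genes. Over the alternatives in which a gene was tested, the lowest log2 difference against DMSO was 3.66 for HLA-B, 3.03 for HLA-E and 2.48 for HLA-F. It was 2.36 for TAP1, 2.33 for NLRC5, 1.07 for B2M, 0.99 for HLA-C, 0.46 for TAP2 and -0.16 for TAPBP. The share of all genes that stay above 0 under every alternative was not computed. Relative to the median of all genes under each scaling, HLA-B stood at the top or next to it and TAPBP at the bottom.

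**Figure D5:**
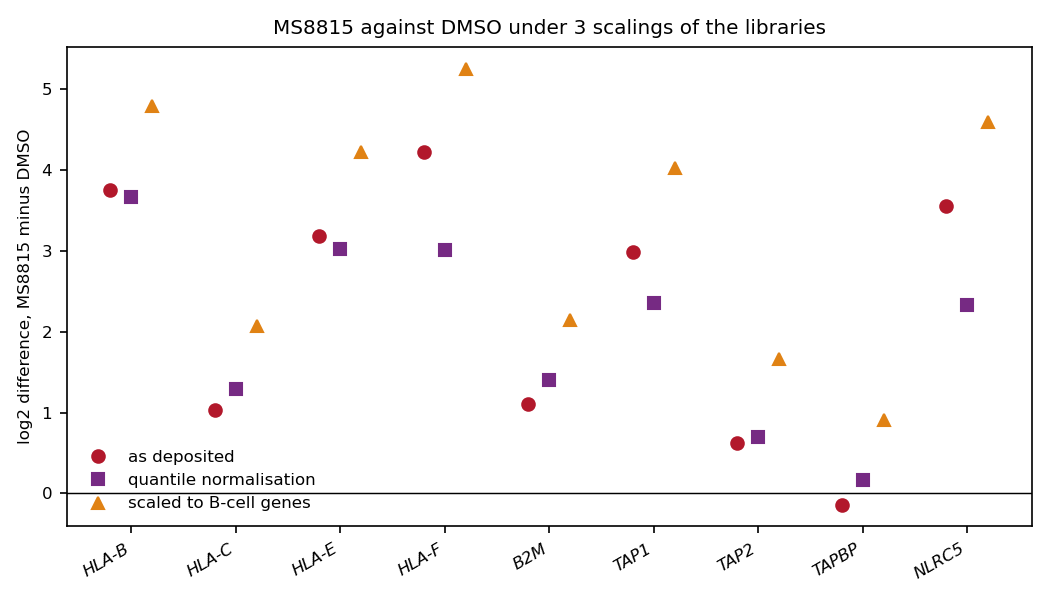
Log2 difference (MS8815 minus DMSO) of the 9 class I genes as deposited, after quantile normalisation of the 4 libraries and on the B-cell scale, with a point per gene and scaling. TAPBP changes sign (-0.14, 0.17 and 0.90), while the other 8 genes stay above 0 on all 3 scalings.

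The members also differed in how closely they followed their own mean profile over the 8 libraries. Pearson's r to the mean of the 9 was 0.94 to 0.99 for HLA-B, HLA-C, HLA-E, HLA-F, B2M, TAP1 and NLRC5, 0.69 for TAP2 and -0.78 for TAPBP. These values rest on the gap between the MS8815 libraries and the rest. Each gene is also part of the mean it is compared with, which raises its r. Over the 6 libraries without MS8815, r was 0.90 or more for HLA-B, HLA-C, HLA-E and HLA-F. It was 0.69 for TAP1, 0.79 for TAP2 and 0.67 for NLRC5, but -0.36 for B2M and -0.0041 for TAPBP. HLA-F, with few reads in these libraries, had the highest r (0.99). A mean of at least 100 normalised counts was reached by 11165 genes, members included, and the members were left out of the ranking. The most alike over the 8 libraries were TSPAN4, B3GALT6, SPATS2L, PTGES and TRIM16L (r = 0.999 to 0.996). TSPAN4 is a tetraspanin, B3GALT6 a galactosyltransferase of proteoglycan synthesis and PTGES a prostaglandin E synthase. Over the 6 libraries without MS8815 they were TSPAN4, B3GALT6, RALB, SPATA20 and CTSZ (r = 0.993 to 0.988), so TSPAN4 and B3GALT6 led both orders. These are descriptions of few libraries that share their groups.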

How the data were processed

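RNA from 8 SUDHL6 libraries (MS8815, EPZ-6438, MS8815N and DMSO, 2 each) was sequenced. The authors deposited 3 tables of variance-stabilised values on a log2-type scale, each holding 1 compound and the same 2 DMSO libraries and transformed separately. STAR 2.4.2, Salmon and GRCh38 are named in the submitters' processing notes, and, per the labels' protocols, either of 2 library kits was used, without saying for which library. The 9 genes and all gene lists were chosen with earlier results of these data known.

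Values were inverted to normalised counts in closed form, taking the lowest value of a table as a count of 0. A doubling near the median gene spans only 0.0606 deposited units in the MS8815 table. Between tables, the DMSO values of a gene were offset by the same amount in both libraries once a small library term was removed, to within 3.5e-11 on the log2 scale over 17219 genes, which allowed a joined scale. Depth was estimated from the spacing of low values, and no exact read counts were recovered, so no count model was run. limma 3.58.1 (R 4.3.3) with a trend was run two-sided on the deposited values of a table, with Benjamini-Hochberg adjustment over all its genes and 0.05 as the threshold. Log2 differences and SEs used log2(normalised count + 1). Compounds were compared in 1 limma fit over the 8 joined libraries. The steps were tested on simulated data. All 9 genes were tested in each comparison. The named genes are all 9 members, at most 8 called genes per list by smallest p, and the 5 genes most alike in profile. IRF1, RFXAP, RFXANK, RFX5, CIITA, EZH2, CDH1, DCN and, where not called, PSMB8, PSMB9 and PSMB10 fall outside that rule and were named after their values were seen. Tried as alternatives were limma without trend, the other scale, quantile normalisation, scaling to B-cell genes, removal of the lower 50% of genes by level, pseudocounts of 0.1 and 10, a replicate block and leaving out each library.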

Additional observations from a re-analysis of the deposited data

How the results depend on the processing

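With 2 libraries per group, precision rests on the variance that limma shares across genes, and where an arm was left with 1 library that library is assumed to vary like the others. HLA-F and NLRC5 are limited by few reads outside MS8815. Over single-gene values, 506 kept direction and side of the threshold, 15 lost and 11 gained a call, and 18 turned direction. Where a value moved, the cause was not tested.

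The members called against DMSO numbered 7 to 8 with MS8815 when 1 library was left out, and 0 to 0 with EPZ-6438 and with MS8815N. They numbered 6 to 7 for MS8815 against MS8815N, 6 to 8 for MS8815 against EPZ-6438 and 0 to 1 for MS8815N against EPZ-6438 (B2M, without MS8815N replicate 1). In each comparison with MS8815, the number of all genes called also moved widely between these leave-one-out runs. The member counts of those runs therefore have no fixed background and do not show that the calls are stable. EPZ-6438 gained 1 call in limma without trend (HLA-C) and 2 after removal of the lower 50% of genes (HLA-B and HLA-C). That filter leaves fewer genes and only 6 members to test. The share of all genes called under it is not given, so its counts cannot be weighed against a background. Without this filter, 47.3% of all genes were called for MS8815 against MS8815N and 47.5% for MS8815 against EPZ-6438. Under it MS8815N gained 1 call (HLA-B), MS8815 against MS8815N had 4, MS8815 against EPZ-6438 had 5 (4 higher, 1 lower) and MS8815N against EPZ-6438 gained 1 (B2M). Scaling to the B-cell list also gave 1 call, B2M, for MS8815N against EPZ-6438, where 971 of the 17467 shared genes were called.

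The replicate numbers were not found to pair the libraries: the correlation of same-numbered deviations was 0.0152, -0.0272 and 0.0225 for MS8815, EPZ-6438 and MS8815N. With the replicate block, MS8815N against DMSO had 1 call (HLA-B), MS8815N against EPZ-6438 had 1 (B2M), and the TAPBP call of MS8815 against DMSO was lost (log2 -0.14, limma's adjusted p = 0.0616, and 8.15e-05 to 0.211 over all alternatives).

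TAPBP turned direction under quantile normalisation for MS8815 against DMSO (0.17), MS8815N (0.17) and EPZ-6438 (0.088) and for MS8815N against DMSO (0.0043). Scaling to B-cell genes turned it to 0.90, 0.92 and 0.89 for MS8815 against DMSO, MS8815N and EPZ-6438. When 1 library was left out, the log2 difference from DMSO with EPZ-6438 ran from -0.0014 to 0.052 for TAPBP (-0.00043 without DMSO replicate 2) and from -0.18 to 1.69 for NLRC5. With MS8815N it ran from -0.0072 to 0.070 for B2M (-0.00027 without DMSO replicate 1) and from -0.078 to 1.32 for NLRC5. Between MS8815N and EPZ-6438 it ran from -0.072 to 0.13 for HLA-E, from -0.51 to 0.23 for TAP1, from -0.49 to 0.30 for HLA-F and from -1.09 to 0.80 for NLRC5 (0.55 without MS8815N replicate 2). Groups of 2 libraries are too small to check for an outlying library.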
